A study of Homo sapiens with 47 samples.

Results

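Kinesins are motor proteins that walk along microtubules with the energy of ATP. Transport kinesins carry vesicles, organelles and ciliary cargo, mitotic kinesins build the spindle and part the chromosomes, and a further set acts at cilia and centrioles or has less studied roles. The members described here are the protein-coding RefSeq genes whose symbol is KIF followed by a number and its letters, and the rule found 39 such genes among 20037 protein-coding genes on chromosomes 1 to 22, X and Y. The 5 KIF-named pseudogenes were left out, and CENPE and the KIFC genes fall outside the rule. The members belong to 13 kinesin families, have a median gene span of 56.4 kb against 24.1 kb for all protein-coding genes, and 11 of them exceed 100 kb. The measurements concern the RNA of these genes, not the motors themselves: each value is the number of protein-binding sites mapped to a gene's transcript.

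The sites came from uSpyCLIP-seq, in which a tagged RNA-binding protein is crosslinked to RNA by ultraviolet light, captured through the covalent SpyTag-SpyCatcher bond and sequenced with the RNA fragments still attached. All groups described here used Lenti-X 293T, a human embryonic kidney line for packaging lentivirus, made to stably express the protein under study, irradiated on ice with UV-C and treated with RNase I. The 47 libraries form 20 groups. PTBP1, a splicing repressor that binds pyrimidine-rich RNA, was profiled from 10000000, 100000, 10000 and 1000 cells, and RBFOX2, a splicing regulator that binds GCATG motifs, from 10000000 cells, with 2 libraries each. SpyCatcher 1.0 and SpyCatcher 2.0 were each used in amounts of 20 µg and 40 µg, 1 library per setting, and their labels name no protein, while the names of the lists give PTBP1. The RNA-targeting proteins dPspCas13b and dRfxCas13d, whose RNA-cutting activity is disabled, were profiled without a guide RNA and with the guides EZH2g1 and EZH2g2, which by their names target EZH2, with 3 libraries each. The labels do not say which promoter drives each protein or whether a line is 1 clone. RNA levels were not measured in these lists, so the labelled cell type was not checked against its markers, and a site count cannot part RNA abundance from binding.

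Each group described here has 1 deposited list of sites, giving positions and strands on hg38 and no read count. The depth behind a site is therefore unknown, no spread between replicates can be given, and no test was made. A range in parentheses is a 95% Clopper-Pearson interval, which is exact for a binomial share and covers counting error only. Neighbouring sites on 1 transcript are not independent, so these intervals are too narrow as a measure of repeatability. A site was given to the gene that holds its midpoint, on the strand of that gene. All 17 lists together placed 7097 of 2232378 sites in kinesin genes. The 15 lists described here comprise 9 of PTBP1, RBFOX2 and the SpyCatcher comparison, whose sites are called clusters and are mostly a few nucleotides wide, and 6 of Cas13, whose sites are over 100 nt wide.

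PTBP1 clusters lay in most kinesin genes, and mitotic and transport kinesins held most of them. At 10000000 cells 32 of 39 kinesins had at least 1 cluster, 82.1%, against 60.3% of all protein-coding genes. The kinesins held 3280 clusters, which were 0.363% (0.351 to 0.376) of those in protein-coding genes. The median was 48 clusters per kinesin and 4 per protein-coding gene. Per length the gap was smaller, with 87 clusters per 100 kb of kinesin span and 71 per 100 kb of protein-coding span. The count tended to rise with the span of the gene, with a Spearman correlation of 0.61 over the 39 kinesins and 0.531 over all protein-coding genes. The Pearson correlation over the kinesins was only 0.298, and KIF26B, the longest at 554 kb, had 7 clusters. These points come from 1 list and share its unknown depth.

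**Figure D1:**
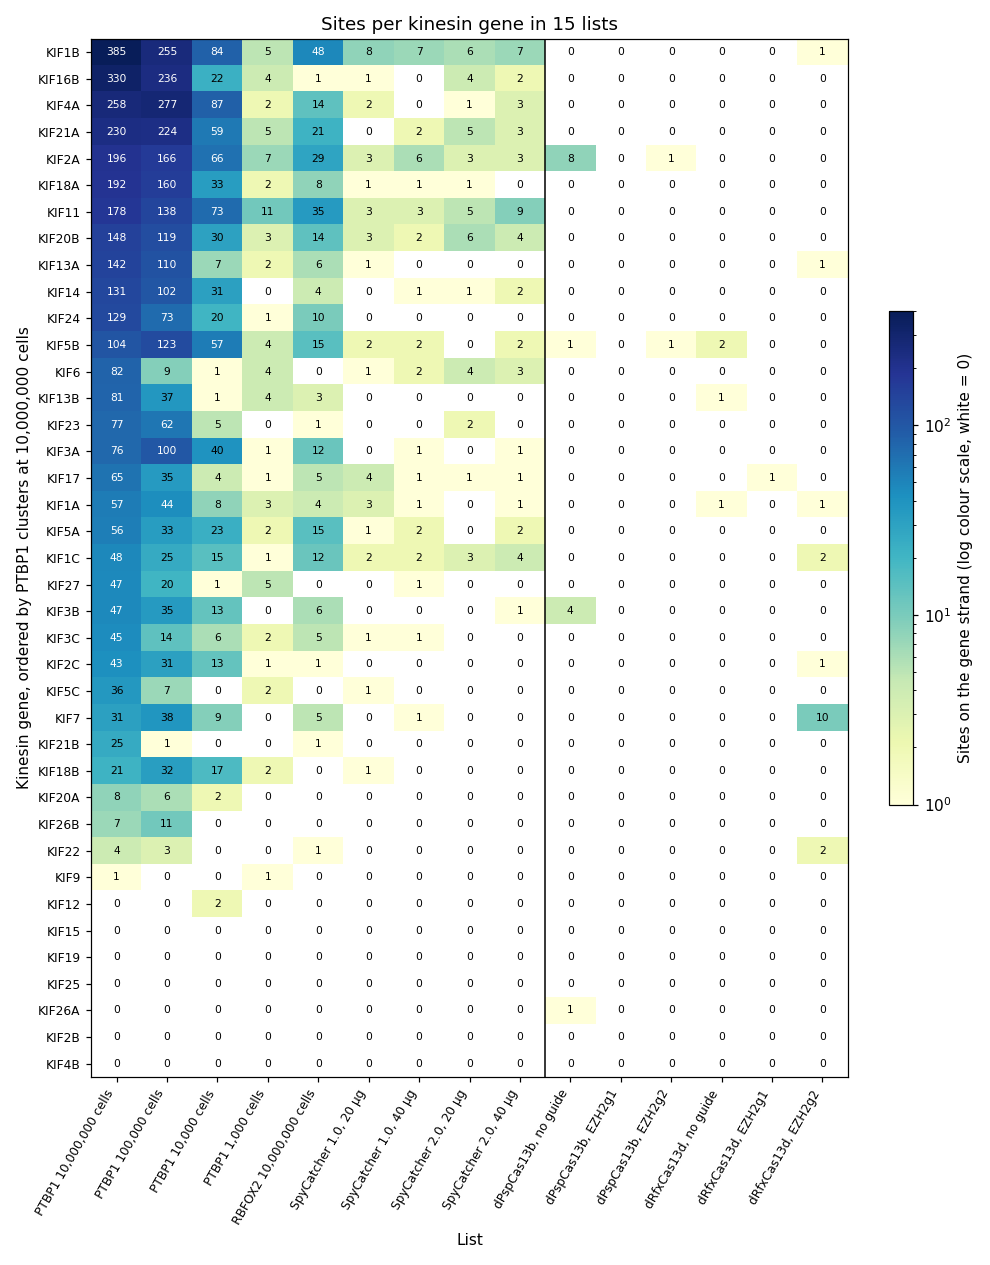
Sites on the gene strand for 39 kinesin genes (rows, ordered by PTBP1 clusters at 10000000 cells) in 15 lists (columns), with each number printed and shaded on a log colour scale, and 0 in white. KIF1B leads with 385 clusters, the 9 lists left of the line are PTBP1, RBFOX2 and SpyCatcher, and the Cas13 lists to its right hold 0 in most cells.

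**Figure D2:**
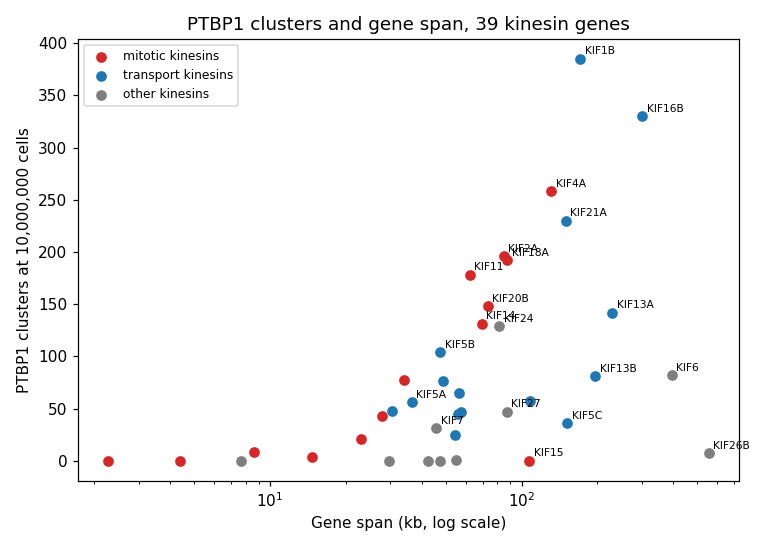
PTBP1 clusters at 10000000 cells (vertical axis) against gene span in kb (horizontal log axis), 1 point per kinesin gene, coloured by role. Mitotic kinesins such as KIF11 and KIF2A lie above other kinesins of like span, while KIF15, KIF26B, KIF5C and KIF6 lie low for their spans.

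Among the mitotic kinesins, 11 of 14 had PTBP1 clusters at 10000000 cells, 1256 in all, at 172 per 100 kb. KIF11, the kinesin-5 motor that pushes spindle poles apart, had 178 clusters in a span of 62.3 kb, or 286 per 100 kb. Its counts were 138 at 100000 cells, 73 at 10000 and 11 at 1000, and RBFOX2 had 35. KIF11 thus held the most clusters of any kinesin at 1000 cells, ahead of KIF2A with 7. The SpyCatcher lists gave KIF11 3 clusters with each amount of version 1.0, and 5 at 20 µg and 9 at 40 µg of version 2.0.

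KIF2A, a kinesin-13 that shortens microtubules rather than walking on them, had 196, 166, 66 and 7 PTBP1 clusters in order of falling input and 29 RBFOX2 clusters. KIF4A, a chromokinesin of the midzone, had 258, 277, 87 and 2 PTBP1 clusters and 14 of RBFOX2. KIF4A was the leading kinesin at 100000 and at 10000 cells and held few clusters at 1000. KIF18A, which damps chromosome movements at the metaphase plate, had 192, 160, 33 and 2 clusters, and 8 of RBFOX2.

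KIF20B and KIF14 both act in cytokinesis. KIF20B had 148, 119, 30 and 3 PTBP1 clusters and 14 of RBFOX2. KIF14 had 131, 102, 31 and 0, and 4 of RBFOX2. Both counts at 1000 cells rest on so few clusters that their order has no meaning. The remaining mitotic kinesins were lower at 10000000 cells, with 77 clusters in KIF23, a centralspindlin subunit, 43 in KIF2C, 21 in KIF18B, 8 in KIF20A and 4 in KIF22. KIF2B and KIF4B, whose spans are 2.27 and 4.39 kb, and KIF15, at 107 kb, had no site in any of the 17 lists. KIF15, a spindle motor, is thus longer than KIF11 and KIF2A and held no site.

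All 15 transport kinesins had PTBP1 clusters at 10000000 cells, 1727 in all, at 102 per 100 kb. KIF1B, a kinesin-3 that moves mitochondria and synaptic vesicle precursors, had the most of any kinesin, 385, then 255 at 100000 cells, 84 at 10000 and 5 at 1000. It also led for RBFOX2 with 48. Among protein-coding genes KIF1B ranked 310 at 10000000 cells, so 1.55% of them held as many clusters or more. KIF1B also had the most clusters of the kinesins with version 1.0 of SpyCatcher, 8 at 20 µg and 7 at 40 µg. With version 2.0 it had 6 at 20 µg, level with KIF20B, and 7 at 40 µg, below the 9 of KIF11. KIF17, a kinesin-2 of dendrites and cilia, had 4 at 20 µg of version 1.0, next after KIF1B, and 1 in each of the other SpyCatcher lists. KIF1A, which carries synaptic vesicle precursors, had 3 at 20 µg of version 1.0.

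KIF16B, which carries early endosomes, was next with 330 and 236 clusters at 10000000 and 100000 cells. It had 22 at 10000 cells and 4 at 1000, and 1 RBFOX2 cluster. KIF21A, a kinesin-4 that restrains microtubule growth, had 230, 224, 59 and 5 PTBP1 clusters and had 21 of RBFOX2. KIF16B thus had slightly more clusters than KIF21A at 100000 cells and fewer at 10000, with no spread between replicates to set this against.

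KIF13A, a kinesin-3 of endosomal transport, resembled KIF16B, with 142, 110, 7 and 2 PTBP1 clusters and 6 of RBFOX2. KIF5B, the broadly expressed kinesin-1 heavy chain, had 104, 123, 57 and 4 clusters, and 15 of RBFOX2. Its neuronal relatives held fewer: KIF5A had 56, 33, 23 and 2, and KIF5C 36, 7, 0 and 2. KIF3A, a subunit of the kinesin-2 motor of cilia, had 76, 100, 40 and 1. At 10000 cells the number in KIF5B was 54.8% and in KIF3A 52.6% of that at 10000000 cells, where it was 6.67% in KIF16B and 4.93% in KIF13A.

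The 10 kinesins outside both role lists were sparser, with clusters in 6 of 10, 297 in all, at 22.1 per 100 kb at 10000000 cells. KIF24, which acts at centrioles, had 129 of these clusters and KIF6 had 82. KIF27 had 47 and KIF7, the regulator of Hedgehog signalling at the tip of the primary cilium, had 31. KIF7 gave 38 at 100000 cells, 9 at 10000, 0 at 1000 and 5 for RBFOX2. KIF26B, the longest kinesin gene at 554 kb, had only 7 clusters, and KIF9 had 1. KIF12 had no cluster at 10000000 cells and 2 at 10000. KIF19 and KIF25 had no site in any of the 17 lists, and KIF26A had none in the 9 lists of clusters.

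By family at 10000000 cells, the density ran from 286 per 100 kb in kinesin-5, which is KIF11 alone, through 201 in kinesin-6 and 187 in kinesin-13, to 83.2 in kinesin-1, 18.4 in kinesin-9 and 1.17 in kinesin-11, with 0 clusters in kinesin-12 (KIF12 and KIF15) and kinesin-14 (KIF25). For RBFOX2 kinesin-5 was again the densest, at 56.2 per 100 kb, followed by kinesin-13 at 20.4.

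The lists of lower PTBP1 input show which kinesins still carry clusters when few cells are used. The kinesins with a cluster numbered 31 of 39 at 100000 cells, 28 at 10000 and 24 at 1000, against backgrounds of 56.2%, 46.2% and 31% of protein-coding genes. In the same order they held 2526, 729 and 75 clusters, or 0.351% (0.337 to 0.364), 0.314% (0.292 to 0.337) and 0.266% (0.209 to 0.334) of protein-coding clusters. The kinesin density, set against that of all protein-coding genes, was 67 against 56.6 per 100 kb at 100000 cells. It was 19.3 against 18.3 at 10000 and 1.99 against 2.23 at 1000. These densities have no interval, and the value at 1000 cells rests on 75 clusters. At 1000 cells 7 of 14 mitotic and 13 of 15 transport kinesins had a cluster, and 22 of 39 kinesins had a cluster at every input, against 27.3% of protein-coding genes. The order of kinesins by cluster number was alike between the lists of 10000000 and 100000 cells (Spearman 0.949 over 39 genes) and less so at 1000 cells (0.737). Over the 39 kinesins the Spearman correlation of cluster number with gene span was 0.61, 0.506, 0.24 and 0.564 in order of falling input. In kinesins the relation with length was thus weakest at 10000 cells. Over all protein-coding genes it was 0.531, 0.517, 0.405 and 0.369 in the same order, lowest at 1000 cells.

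**Figure D3:**
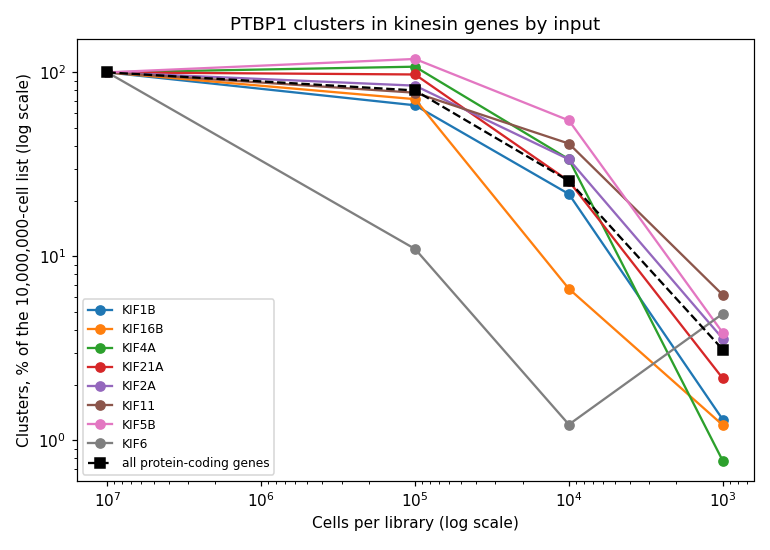
Clusters at each PTBP1 input as a percentage of the 10000000-cell list (vertical log axis) against cells per library (horizontal log axis) for 8 kinesin genes, with all protein-coding genes as a dashed line. KIF5B and KIF11 stay above the dashed line at 10000 cells, KIF16B and KIF6 drop below it, and KIF6 has 1 cluster at 10000 cells and 4 at 1000.

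The lower-input clusters in kinesins were set against the 10000000-cell list, counting a cluster as shared when at least 1 nt overlapped on the same strand. At 100000 cells 54.6% (52.6 to 56.5) were shared, against 56% in all protein-coding genes. The share was 72.4% (69 to 75.6) against 75.5% at 10000 cells. At 1000 cells it was 57.3% (45.4 to 68.7) against 72.7%, so the interval for kinesins lies below the value for all protein-coding genes. Of the 1000-cell clusters in kinesins, 34.7% (24 to 46.5) overlapped the 10000-cell list, against 56.3% overall.

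Single kinesins differed at 1000 cells. All 7 KIF2A clusters and 9 of 11 in KIF11 overlapped a cluster of the highest input, as did 4 of 5 in KIF1B and 3 of 5 in KIF21A. None of 4 did in KIF6, 1 of 4 did in KIF16B and 2 of 5 in KIF27. The median gap between neighbouring kinesin clusters was 37 nt at 10000000 cells, the same as over all protein-coding genes. At 1000 cells it was 9903 nt over only 51 gaps in kinesins, against 592 nt over 22548 gaps in all protein-coding genes.

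Clusters were unevenly placed along the kinesins. KIF1B had 81 of its 385 clusters between 70 and 80 kb from its 5′ end, and RBFOX2 had 26 of 48 in the same stretch. In KIF2A, with a span of 84.8 kb, the median PTBP1 cluster lay 20.1 kb from the 5′ end and the median RBFOX2 cluster at 13.2 kb. In KIF16B the median was 175 kb of 301 kb. In KIF11 the RBFOX2 clusters gathered near the 3′ end, with 17 of 35 beyond 60 kb, and 8 of its 11 PTBP1 clusters at 1000 cells lay there too. KIF5A was loaded at its 3′ end, with 51 of 56 PTBP1 clusters and all 15 RBFOX2 clusters beyond 30 kb of its 36.6 kb span.

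KIF6, linked to the cilia of ependymal cells, had clusters at low input that did not all lie where those of high input did. At 10000000 cells 49 of its 82 clusters lay between 30 and 40 kb of a 395 kb span. At 100000 cells 4 of its 9 clusters lay in the same stretch and 5 of 9 overlapped a cluster of 10000000 cells. At 10000 cells it had 1 cluster, at 34.2 kb. At 1000 cells it had 4, at 32.4, 48.2, 139 and 379 kb. A cluster at 379 kb recurred in the SpyCatcher 1.0 list of 40 µg and the 2.0 list of 20 µg, and did not occur in the 10000000-cell list.

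**Figure D4:**
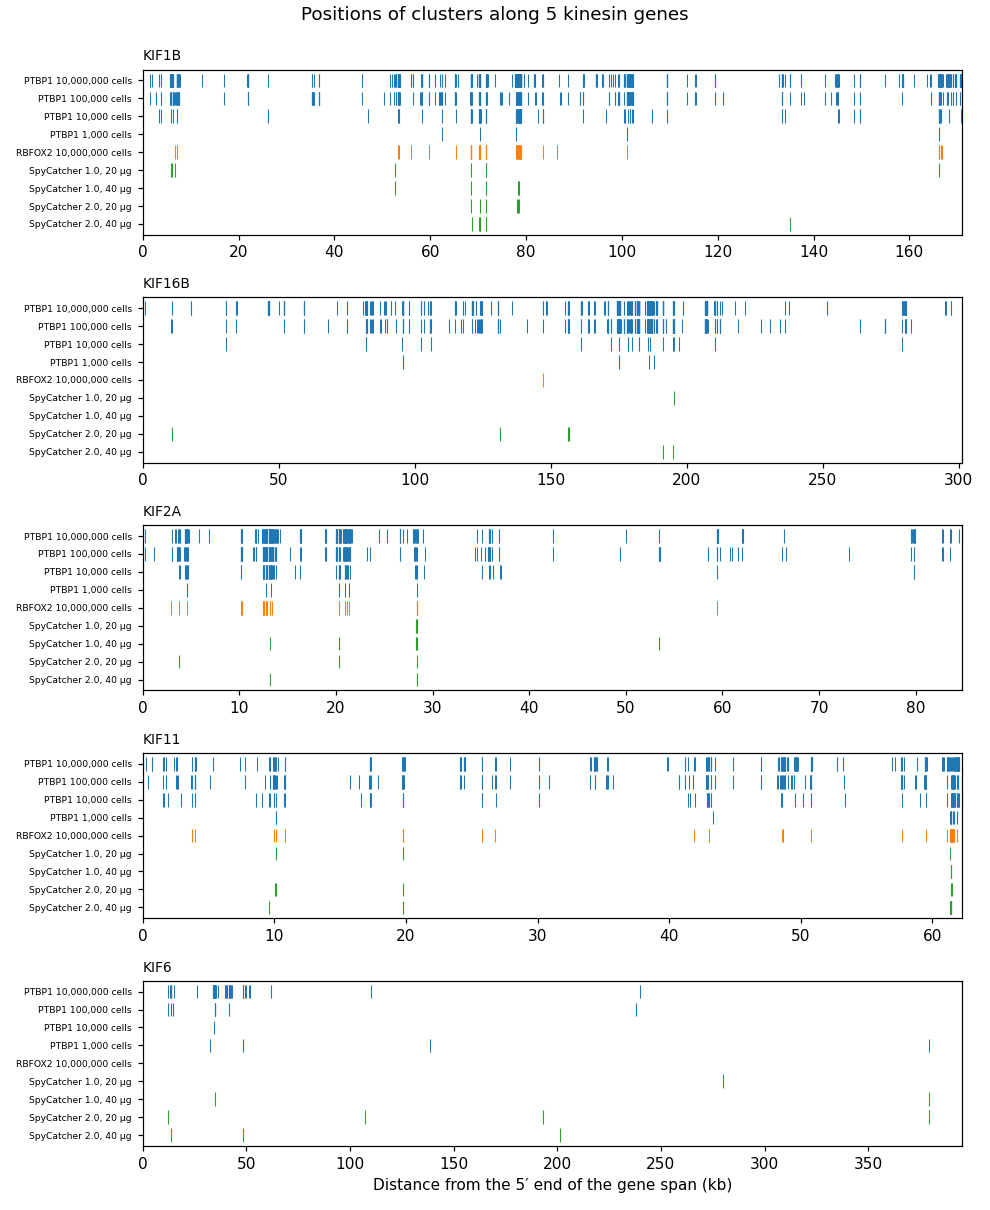
Position of each cluster as a vertical tick, in kb from the 5′ end of the gene span (horizontal axis), for KIF1B, KIF16B, KIF2A, KIF11 and KIF6 in 9 lists (PTBP1 inputs in blue, RBFOX2 in orange, SpyCatcher in green). KIF1B ticks crowd at 70 to 80 kb in the PTBP1 and RBFOX2 lists, KIF11 ticks crowd near the 3′ end, and KIF6 ticks crowd at 30 to 40 kb at the highest input.

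RBFOX2 clusters occurred in 25 of 39 kinesins, 64.1%, against 39.1% of protein-coding genes. Their 276 clusters were 0.25% (0.221 to 0.281) of those in protein-coding genes, and the density of 7.32 per 100 kb was below the 8.73 of all protein-coding genes. Of these clusters 85.1% (80.4 to 89.1) overlapped a PTBP1 cluster of 10000000 cells, against 81.8% overall. In the other direction 5.3% (4.56 to 6.13) of the kinesins' PTBP1 clusters overlapped RBFOX2, against 7.95% overall. The overlap reached 45 of 48 RBFOX2 clusters in KIF1B, 28 of 29 in KIF2A and 31 of 35 in KIF11. KIF14, with 131 PTBP1 clusters, had 4 of RBFOX2, and KIF16B had 1, so the PTBP1-rich kinesins were not all rich in RBFOX2.

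The SpyCatcher lists compare capture by both versions of the protein. With version 1.0, 17 of 39 kinesins had clusters at 20 µg and 17 at 40 µg, against 22.7% and 23.7% of protein-coding genes. With version 2.0 the numbers were 13 at 20 µg and 16 at 40 µg, against 27% and 28.2%. Per length the kinesins lay below all protein-coding genes. With version 1.0 they had 1.01 against 1.2 clusters per 100 kb at 20 µg and 0.955 against 1.34 at 40 µg. With version 2.0 the densities were 1.11 against 1.83 and 1.27 against 2.09. The kinesin clusters numbered 38 and 42 at 20 µg for versions 1.0 and 2.0, a ratio of 1.11 (0.696 to 1.76), where all protein-coding genes gave 1.53 (1.5 to 1.56). At 40 µg they numbered 36 and 48, a ratio of 1.33 (0.848 to 2.11) against 1.57 (1.54 to 1.6). Both kinesin intervals include 1 and the value for all genes. The intervals are those of the share of version 2.0 among the clusters of both versions, turned into a ratio. They cover counting error only, and with 1 library per setting a difference between versions in kinesins was not tested. Of the kinesin clusters of version 1.0, 21.1% (9.55 to 37.3) at 20 µg and 16.7% (6.37 to 32.8) at 40 µg overlapped those of version 2.0 at the same amount, against 35.3% and 37.1% over all protein-coding genes. At 40 µg the kinesin interval lies below the value for all genes, with 6 of 36 clusters shared.

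The clusters of the 9 lists merged into 4536 kinesin loci, of which 3216, or 70.9%, came from 1 list. Loci present in all 9 lists numbered 3 and lay in mitotic kinesins. They were in KIF11 at chr10:92654464-92654574 on the plus strand, 876 nt from the 3′ end of the gene, in KIF20B at chr10:89707579-89707672 and in KIF2A at chr5:62334527-62334584, both also on the plus strand. A further 2 loci were in 8 lists, in KIF1B at chr1:10282249-10282319 and in KIF1C, a kinesin-3 of dense-core vesicle transport, at chr17:4999483-4999655. The annotation used gives gene spans without exons, so it is not stated whether these loci are exonic or intronic. In KIF1C the middle of the locus lies near the 5′ end, 1619 nt into a span of 30.5 kb.

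Sequence could be read for the few sites that fall in RefSeq promoter windows of GRCh38.p14, which run from 250 bases before to 50 after a start site. They are shown because they are the places where a cluster and its bases can be seen together, and capitals mark the bases under the site. Each is written 5′ to 3′ on the gene's strand. The KIF3C stretch is chr2:25982465-25982494 (minus strand) with a PTBP1 cluster of 10000000 cells, and KIF6 is chr6:39725382-39725411 (minus strand) with a cluster of the same list. The KIF11 stretch is chr10:92593142-92593171 (plus strand) with an RBFOX2 cluster.
KIF3C: tttctctctcaTTCTCCAGtggcggcggcg
KIF6: gctactgttgcTAAGACTgtgggtcgccgg
KIF11: ttcgggcggagacGAGattagtgatttggc
The KIF3C cluster follows a stretch of mostly T and C. The 4 letters TCTT, a short PTBP1 motif, occurred in none of these stretches, and TGCATG, the RBFOX2 motif, in none either. Over all windows TCTT was on the gene's own strand in 50% of the 42 kinesin windows and 57.2% of 22199 protein-coding windows, and on either strand in 71.4% and 78.9%. TGCATG was on the own strand in 0 of 42 kinesin windows and 4.05% of protein-coding windows, and on either strand in 2.38% and 7.54%. Absence from these windows says only that the letters are not there.

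The Cas13 lists address off-target contacts with RNA that do or do not depend on a guide. Each of them held a site in 7 kinesins or fewer. Without a guide dPspCas13b had sites in 4 of 39 kinesins, 10.3%, against 10.4% of protein-coding genes. Unguided dRfxCas13d had sites in 3 of 39, 7.69%, against 9.75%. With EZH2g1, dPspCas13b had no site in a kinesin (0.274% of protein-coding genes had one) and dRfxCas13d had 1, in KIF17 (4.18%). With EZH2g2, dPspCas13b had sites in 2 kinesins, 5.13%, against 2.57%, and dRfxCas13d in 7, 17.9%, against 5.43%. In all, 13 of 39 kinesins had a site in at least 1 of the 6 lists, against 22.8% of protein-coding genes. They were 10 in the guided lists, against 11.1%, and 6 in the unguided lists, against 16.4%, with KIF1A, KIF2A and KIF5B in both. The 13 and the 10 of 39 are larger shares than their backgrounds, and the 6 of 39 is close to its own. No allowance is made here for the longer spans of kinesins. Sites with a guide only were found in KIF13A, KIF17, KIF1B, KIF1C, KIF22, KIF2C and KIF7, and without a guide only in KIF13B, KIF26A and KIF3B. The remaining 26 kinesins had no site in these 6 lists, among them KIF16B, KIF4A, KIF21A, KIF18A and KIF11, which are among those richest in PTBP1 clusters.

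In the unguided lists the sites sat in few kinesins. Of these sites 6 of 18, or 33.3%, lay in the last 2000 nt of the gene span, against 40.9% over all protein-coding genes. KIF2A held 8 of the 14 kinesin sites of unguided dPspCas13b, which merge into 4 separate stretches between 52040 and 82925 nt from its 5′ end. KIF3B, the partner of KIF3A in kinesin-2, held 4, merging into 2 stretches that lie 470 to 3240 nt from its 3′ end. KIF5B and KIF26A held 1 each, the KIF26A site 103 nt from its 3′ end. For dRfxCas13d without a guide the 4 sites were 2 in KIF5B and 1 each in KIF1A and KIF13B.

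With dRfxCas13d and EZH2g2, KIF7 held 10 of 18 kinesin sites, which merge into 9 stretches. They lay between chr15:89629384 and chr15:89649434 on the minus strand, 13723 to 33556 nt from the 5′ end of a 45.7 kb span, and were 192 to 282 nt wide. KIF7 ranked 16 among the 1088 genes with a site in that list, with 3 others at the same number, and 0.0948% of protein-coding genes held as many or more. It had no site in the other 5 Cas13 lists described here. None of the 10 overlapped a cluster of PTBP1, RBFOX2 or the SpyCatcher lists, although KIF7 had 31 PTBP1 clusters at 10000000 cells. The other sites of the list were 2 each in KIF1C and KIF22 and 1 each in KIF13A, KIF1A, KIF1B and KIF2C.

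**Figure D5:**
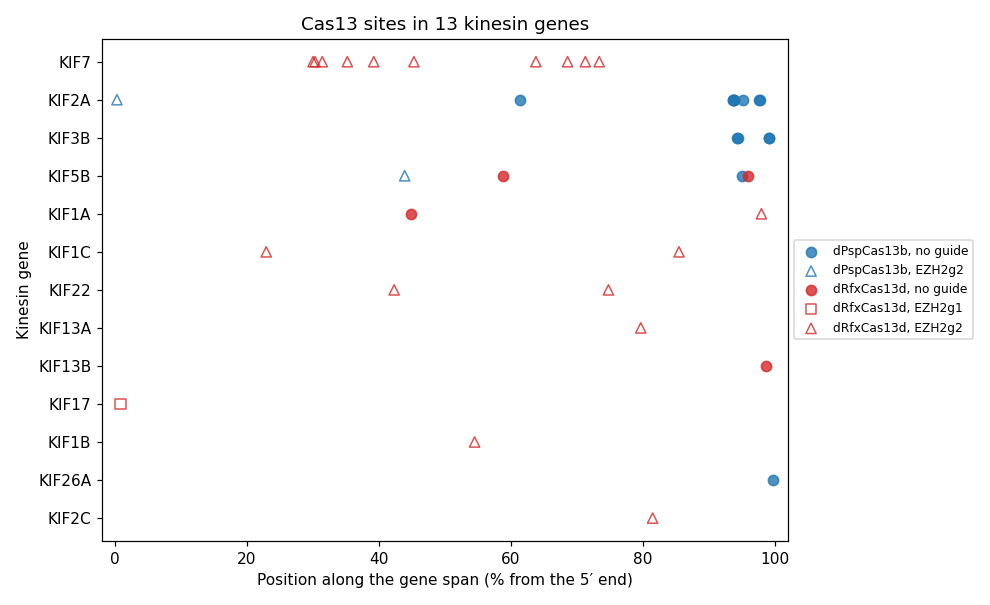
Cas13 sites in 13 kinesin genes by position along the gene span, as a percentage from the 5′ end (horizontal axis), with a row per gene, blue for dPspCas13b and red for dRfxCas13d, filled circles without a guide and open symbols with one. The 10 open triangles of KIF7 spread over its middle, while the filled circles of KIF2A and KIF3B stand mostly at the 3′ end.

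The share of protein-coding sites that lay in kinesins was 0.302% (0.165 to 0.507) for unguided dPspCas13b and 0.144% (0.0393 to 0.369) for unguided dRfxCas13d. It was 0.327% (0.0397 to 1.18) for dPspCas13b with EZH2g2 and 0.933% (0.554 to 1.47) for dRfxCas13d with EZH2g2, the highest of these lists. Without KIF7 the last value was 0.417%, and without KIF2A the share of unguided dPspCas13b was 0.13%, so 1 gene decides each. With dRfxCas13d and EZH2g1 the share was 0.106% (0.00269 to 0.59), and with dPspCas13b and EZH2g1 it was 0 of 58 sites, with an upper limit of 6.16%. Pooled over both proteins, guided sites in kinesins were 21, or 0.593% (0.367 to 0.905), and unguided sites 18, or 0.243% (0.144 to 0.384). These intervals overlap. KIF7 holds 10 of the 21 guided sites, and the guided share without it was 0.312% (0.156 to 0.557).

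Unguided Cas13 sites in kinesins lay in the last 2000 nt of the gene span for 6 of 18, or 33.3% (13.3 to 59), against 40.9% over all protein-coding genes. Guided sites did so for 0 of 21, with an upper limit of 16.1%, against 21.8% overall. In the last 5000 nt the shares were 61.1% (35.7 to 82.7) unguided, against 60.7% over all protein-coding genes, and 14.3% (3.05 to 36.3) guided, against 37.8%. KIF7 holds 10 of the 21 guided sites, with midpoints at least 12184 nt from its 3′ end. The guided shares therefore lean on the layout of that gene. Of the kinesin sites of unguided dPspCas13b, 50% (23 to 77) overlapped a PTBP1 cluster of 10000000 cells, against 50.5% over all protein-coding genes. These 14 sites merge into 8 stretches. Among those over PTBP1, 4 share a stretch of KIF2A and 2 share a stretch of KIF3B, so they are not separate observations. Of the 18 sites of dRfxCas13d with EZH2g2 none overlapped a PTBP1 cluster of 10000000 cells, with an upper limit of 18.5%, against 15.6% overall. No kinesin site of any of the 6 Cas13 lists overlapped a site of another of them. Over all protein-coding genes most such overlaps were few too. They were 11.7% of unguided dPspCas13b sites over unguided dRfxCas13d sites and 8.51% of EZH2g2 sites of dPspCas13b over those of dRfxCas13d. Of EZH2g2 sites of dRfxCas13d, 1.3% overlapped its unguided sites. The exception was EZH2g1, where 39 of 58 sites of dPspCas13b, or 67.2% (53.7 to 79), overlapped those of dRfxCas13d. In the other direction 4.46% of 942 did. Since dPspCas13b with EZH2g1 had no kinesin site, kinesins could not show this overlap.

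A further site of dRfxCas13d with EZH2g2 crossed the start of KIF22, a chromokinesin that binds DNA and moves chromosome arms, with its midpoint outside the gene span, so it is not in the counts above. It ran over chr16:29790656-29790827 on the plus strand, 172 nt from 95 bases before to 76 after the start site. The RefSeq promoter window chr16:29790501-29790800 in GRCh38.p14, around the start site at the edge of the span, is printed because it holds 145 nt of this site, in capitals.
KIF22: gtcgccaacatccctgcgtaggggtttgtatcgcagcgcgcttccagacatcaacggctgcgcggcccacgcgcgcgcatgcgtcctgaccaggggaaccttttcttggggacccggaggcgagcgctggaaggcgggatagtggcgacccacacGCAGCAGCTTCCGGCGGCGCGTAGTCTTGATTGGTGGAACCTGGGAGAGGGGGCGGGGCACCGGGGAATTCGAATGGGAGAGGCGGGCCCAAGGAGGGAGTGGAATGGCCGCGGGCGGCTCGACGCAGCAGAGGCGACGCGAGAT
The printed window has a GC content of 67.7%. It holds the letters TCTT, both under the site and before it, and does not hold TGCATG.

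Other genes of microtubule transport give the kinesins a frame. Of 12 kinesin partners, such as the light chains and the TRAK adaptors that tie kinesin-1 to mitochondria, 11 had PTBP1 clusters at 10000000 cells, at 144 per 100 kb, led by TRAK1 with 334. Of 21 subunits of dynein and dynactin, the motor complex that moves the opposite way, all 21 had clusters, at 128 per 100 kb, led by CAPZA1 with 239. Among the 4 kinesins outside the symbol rule CENPE, the kinetochore motor, held 299 of 325. CENPE had 94 RBFOX2 clusters and 16 PTBP1 clusters at 1000 cells, more than any of the 39 kinesins. In the list of dRfxCas13d with EZH2g2 the partners had 0.516 sites per 100 kb, dynein and dynactin 0.553 and the 39 kinesins 0.478. All protein-coding genes had 0.152. Per length the kinesins were thus above all protein-coding genes and not above the partners or dynein and dynactin. The partners rest on 4 sites, dynein and dynactin on 6 and the kinesins on 18, of which KIF7 holds 10.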

How the data were processed

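The deposited lists hold positions and strands on hg38 with no measured values (the other columns are dots), 1 list for each of 17 groups, each tied to the first library of its group. Per the submitters' processing notes, Trim Galore 0.0.6 and STAR 2.7.9a were used. For the caller, its thresholds, duplicate removal and pooling of libraries the answer is: not given in the sources used here. Sites depend on the unknown depth and caller, so numbers of sites between lists are not levels of binding. Lists of a further guide, of uncrosslinked libraries and of gNT are not reported here.

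Gene spans came from RefSeq GRCh38.p14. The strand of 33 kinesins came from the RefSeq promoter table. For 5 (KIF13B, KIF21B, KIF26B, KIF27 and KIF5A) it was inferred as the strand of at least 90% of 3 or more PTBP1 clusters at 10000000 cells, so their PTBP1 counts are not independent of it. KIF19 was counted on both strands. Starts are given from 1, and distances from the 5′ or 3′ end of a gene are measured from the midpoint of a site or locus.

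Named genes were KIF1B, KIF21A and KIF7, the 10 kinesins with most PTBP1 clusters at 10000000 cells, the 5 with most in each other list of clusters, those with a Cas13 site and those with no site. Others named complete a count or a family. The members and lists were chosen with earlier results of these data known. Alternatives covered the assignment rule, strand, merging, overlap and span. Those on the share of sites in kinesins were chosen after seeing the data. The code was tested on simulated data (600 sites, 60 genes, 0 answers differing from a search of all pairs). Scripts ran in Python 3.11.15 (scipy 1.17.1, numpy 2.4.6, matplotlib 3.10.9, pandas 2.3.3).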

Additional observations from a re-analysis of the deposited data

Results flagged for a closer look

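Clusters on the strand opposite to a kinesin were outside the counts and are given here where they exceed the 3 that a count of 0 allows. KIF24 had 16 opposite-strand PTBP1 clusters at 10000000 cells and 19 at 100000, all inside UBAP1 or NUDT2, which overlap it on the other strand. KIF2A had 19, 8 and 7 at 10000000, 100000 and 10000 cells, of which 18, 8 and 7 lay inside DIMT1. KIF7 had 6 at 10000000 cells, all inside TICRR. Over all kinesins the opposite strand held 44 clusters in 4 genes at 10000000 cells.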

How the results depend on the processing

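Over 53 results 197 alternatives were computed, of which 185 stayed within the interval or within 1.5 times the count and 12 moved. Reversal of a result was not assessed. Merging sites, and leaving out sites in another protein-coding gene, changed no kinesin count in the lists of clusters. Those alternatives had little or nothing to remove there, so their agreement says little. Merging overlapping sites lowered the kinesin sites of unguided dPspCas13b to 8. Asking for overlap of at least 50% of the shorter site lowered the share shared with the 10000000-cell list to 50.6% for 100000 cells and 68.9% for 10000 cells. Allowing a gap of 10 nt raised it to 67.9% and 81.1%, to 89.5% for RBFOX2 and to 91.7% for SpyCatcher 2.0 at 40 µg. For the 4 kinesin sites of unguided dRfxCas13d, the share in the last 1000 nt was 0% and the share over the 100000-cell list 0%. Without its leading gene the share of sites in kinesins was 0.13% for unguided dPspCas13b, 0.417% for dRfxCas13d with EZH2g2 and 0.312% for the guided lists pooled. Near the 3′ end and over PTBP1, alternatives were not run for lists with fewer than 4 kinesin sites. No paired analysis was possible because each group described has 1 list and no result comes from a test, and for the same reason no replicate could be left out. Near the 3′ end, the last 5000 nt held 64.3% of kinesin sites of unguided dPspCas13b and 16.7% of those of dRfxCas13d with EZH2g2. The depth behind every count is unknown, and each single Cas13 list has 18 kinesin sites or fewer.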
